A study of Homo sapiens with 4 samples.

Results

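Glycolytic enzyme mRNAs were described in nuclear RNA immunoprecipitation libraries of the osteosarcoma line U2OS, an established human cell line. The set was drawn up by gene symbol, with no threshold on a measured value: GPI, PFKP, ALDOA, TPI1, GAPDH, PGK1, PGAM1, ENO1, PKM and LDHA, which are 10 of the 60676 genes in the deposited tables. The study asked which mRNAs come down with LC3B, a ubiquitin-like protein of autophagosome membranes that is also found in the nucleus. Cells grown in DMEM with fetal bovine serum gave 4 libraries of polyadenylated RNA by a native (uncrosslinked) nuclear protocol: an immunoprecipitate with an antibody to LC3B (the LC3B RIP), another with control IgG (the IgG RIP), and for each an input without antibody. There was 1 library per group, and differences between libraries could not be tested against replicate spread.

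Glycolysis turns glucose into pyruvate in the cytosol, and lactate dehydrogenase then turns pyruvate into lactate. The upper steps spend ATP to make a split sugar phosphate (GPI, PFKP, ALDOA, TPI1), and the lower steps return ATP and NADH (GAPDH, PGK1, PGAM1, ENO1, PKM). Tumour cell lines carry large amounts of these enzymes, and the hypoxia-inducible factor HIF and MYC are known to raise transcription of many of their genes. GAPDH, ENO1, PKM and other glycolytic enzymes have also been described as RNA-binding proteins, but the libraries measured mRNA and not the proteins.

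ACGTG is among the short cores that HIF binds and was the only one searched for, and MYC binds CACGTG, which contains it. In the RefSeq promoter windows for GRCh38.p14, cut here to the 250 bases before each listed start, ACGTG on either strand was found for 7 of the 10 members in at least 1 of their windows, and for 21.7% of 27305 genes. Members had 17 windows between them, of which 9 held a match, against 18.5% of 35116 windows overall. The windows of ENO1, PGAM1 and PKM held no match, which says only that these letters are not there. The PGK1 window and 1 of the 2 LDHA windows are shown, the other LDHA window holding no match, because these members had the lowest folds of the IgG RIP over its input and yet parted company in the LC3B RIP. Capitals mark ACGTG or its reverse complement CACGT, overlapping as CACGTG in places, and matches are letters only, not measured binding sites.
LDHA, chr11:18394313-18394562, plus strand: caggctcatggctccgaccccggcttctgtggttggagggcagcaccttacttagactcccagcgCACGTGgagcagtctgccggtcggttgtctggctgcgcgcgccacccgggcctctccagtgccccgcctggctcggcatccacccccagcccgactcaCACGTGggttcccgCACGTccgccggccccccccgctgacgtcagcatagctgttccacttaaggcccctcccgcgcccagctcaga
PGK1, chrX:78103998-78104247, plus strand: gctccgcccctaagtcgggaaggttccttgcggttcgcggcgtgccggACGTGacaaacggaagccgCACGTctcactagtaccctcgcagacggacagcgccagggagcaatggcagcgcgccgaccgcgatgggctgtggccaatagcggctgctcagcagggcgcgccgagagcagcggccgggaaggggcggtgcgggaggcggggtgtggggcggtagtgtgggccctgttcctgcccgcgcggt

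Total counts were between 10000914 and 10886762 per library. Genes of the mitochondrial chromosome (MT) took 0.774% of the LC3B RIP and 1.76% of the IgG RIP. They took 20.8% of the LC3B input and 22.8% of the IgG input, which were thus not nuclear RNA alone. Because these shares differed, every total below leaves the MT genes out. Those totals were 10375786, 9824400, 8542486 and 8404123 counts for the LC3B RIP, the IgG RIP, the LC3B input and the IgG input. The IgG RIP differed from the other libraries in having reads on 14440 genes against 22947 to 23915. The RIPs also differed in nuclear RNA. MALAT1 had 9161 reads in the LC3B RIP, 41588 in the IgG RIP, 19809 in the LC3B input and 21624 in that of IgG. NEAT1 had 478, 1156, 895 and 802 reads in the same libraries. Both were thus below input with LC3B and above it with IgG. Of the mesenchymal markers for this line, VIM, SPARC, COL1A1 and RUNX2 each had at least 82 reads in every library, whereas COL1A2 had at most 3. Of 12 markers of other cell types, 4 to 5 had 0 reads per library (CD3E and MYH7 in all 4). Others were read. EPCAM had 184 reads in the LC3B RIP, 253 in the IgG RIP, 128 in the LC3B input and 153 in that of IgG. CD68 had 71, 266, 56 and 44 reads in the same libraries, and RBFOX3 50, 0, 30 and 35. In the IgG RIP, EPCAM and CD68 had more reads than RUNX2, at 82. The 12 summed to 35.4 CPM in the LC3B RIP, 53.8 in the IgG RIP, 31.0 in the LC3B input and 32.4 in that of IgG.

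Together the 10 mRNAs took a larger share of the LC3B RIP than of the other libraries. They held 2.01% of its counts outside MT (95% exact binomial interval 2.001 to 2.02), against 1.62% in the IgG RIP (1.61 to 1.63), 1.60% in the LC3B input (1.59 to 1.60) and 1.69% in the IgG input (1.68 to 1.70). Here and below, an interval reflects read counting alone, because each group holds 1 library. PCR copies carried no molecular identifier, so reads may not be independent and the intervals may be too narrow even for counting. GAPDH, the most read member, was part of the excess over the IgG RIP, at 8574 CPM with LC3B and 6593 with IgG. Without GAPDH the other members still held the largest share in the LC3B RIP, at 1.15%. The IgG RIP, at 0.961%, then also lay above both inputs, at 0.796% of the LC3B input and 0.828% of the IgG input. Shares are relative to each library, and in these bulk samples fewer cells with an mRNA and less of it per cell cannot be told apart.

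Levels along the pathway were compared in TPM, the deposited length-corrected unit, rescaled to a fixed sum outside MT. GAPDH, which oxidises the split sugar phosphate and makes NADH, stood far above the rest at 8356 TPM in the LC3B RIP, 6316 in the IgG RIP, 8160 in the LC3B input and 8735 in that of IgG. Both inputs gave the same order after it: TPI1, ENO1, LDHA, ALDOA, PKM, PGK1, PGAM1, GPI and PFKP. PGK1 (369 and 362 TPM in the LC3B and IgG inputs) and PGAM1 (368 and 340) overlapped between the inputs and cannot be ordered, and neither can TPI1 (1265 and 1326) and ENO1 (1209 and 1286). No other neighbours overlapped. In the RIPs ENO1 stood in place 2, at 2149 TPM with LC3B and 1617 with IgG, and ALDOA in place 4. LDHA, in place 4 of both inputs, was in place 6 with LC3B and in place 5 with IgG. PFKP, the platelet-type phosphofructokinase that commits sugar to the pathway, was the lowest member in all 4 libraries, at 27.7, 11.6, 18.7 and 20.4 TPM in the LC3B RIP, the IgG RIP, the LC3B input and the IgG input.

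**Figure D1:**
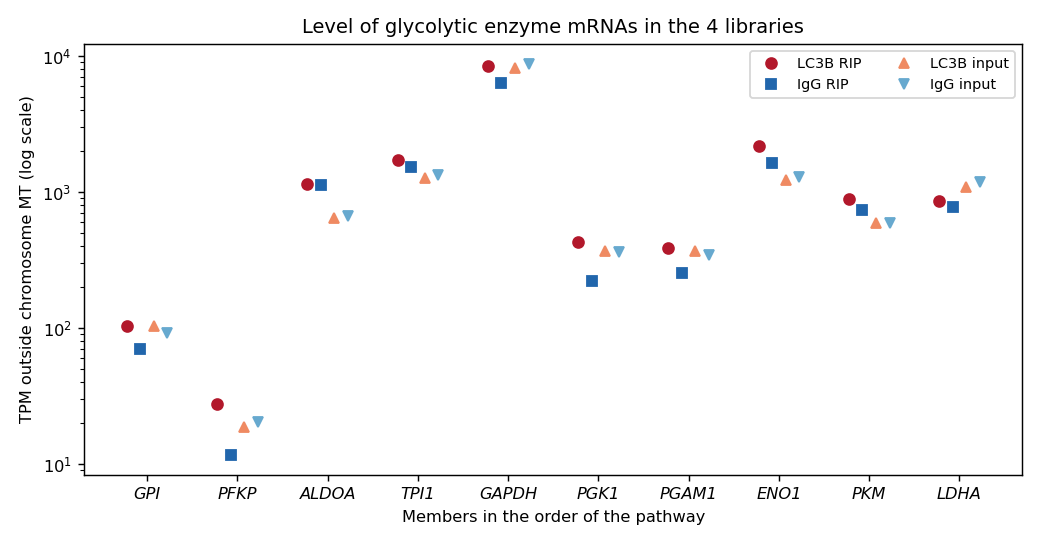
TPM outside MT (log scale) of each member in the order of the pathway, 1 point per library. GAPDH lies highest and PFKP lowest in every library, and for ALDOA, TPI1, ENO1 and PKM both RIPs lie above both inputs.

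The members are given in the order of the reactions, as reads per library and as folds of CPM outside MT with an exact conditional binomial 95% counting interval. A call of higher needed an interval wholly at or above 2, and a call of lower an interval wholly at or below 0.5. The inputs also show the spread between libraries made without antibody, which leaves out any spread of the immunoprecipitation step. Among 2224 genes of at least 100 CPM in both inputs, the folds of the LC3B input over the IgG input ran from 0.895 to 1.13 between percentiles 5 and 95. All 10 members lay within that range, from 0.895 for PFKP, which is itself below 100 CPM, to 1.07 for PGAM1.

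GPI (ENSG00000105220, chromosome 19, 34359480 to 34402413) isomerises glucose phosphate to fructose phosphate. It had 2104 reads in the LC3B RIP, 1505 in the IgG RIP, 1347 in the LC3B input and 1422 in that of IgG. Its fold was 1.32 (1.24 to 1.42) for LC3B over IgG, 1.29 (1.20 to 1.38) for LC3B over its input and 0.905 (0.842 to 0.974) for IgG over its input. In TPM the log2 fold of LC3B over its input was 0.0016. Reads per TPM of GPI, relative to the median gene of the library, were 1.21 in the LC3B RIP and 1.01 in its input, so the value depends on the unit. With MT in the totals the IgG fold over input was 1.15 (1.07 to 1.24), on the other side of 1.

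PFKP (ENSG00000067057, chromosome 10, 3066333 to 3137718) had 701 reads in the LC3B RIP, against 359 in the IgG RIP, 365 in the LC3B input and 401 in that of IgG. In CPM the LC3B RIP was the highest library, at 67.6, and the IgG RIP the lowest, at 36.5. The fold over the IgG RIP, 1.85 (1.63 to 2.11), was the largest of the 10, and over the LC3B input it was 1.58 (1.39 to 1.80). IgG over its input was 0.766 (0.662 to 0.885). In TPM the log2 fold over the IgG RIP was 1.26, with reads per TPM at 1.49 with LC3B and 1.99 with IgG on the same relative scale.

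ALDOA (ENSG00000149925, chromosome 16, 30064164 to 30070457), the aldolase that splits the sugar, showed a different arrangement. It had 12792 reads in the LC3B RIP and 12368 in the IgG RIP, against 5659 in the LC3B input and 5404 in that of IgG. Both RIPs lay clearly above both inputs and close to each other. The folds over input were 1.86 (1.80 to 1.92) with LC3B and 1.958 (1.90 to 2.02) with IgG, and LC3B over IgG was 0.979 (0.955 to 1.004).

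TPI1 (ENSG00000111669, chromosome 12, 6867119 to 6870948), which interconverts the triose phosphates, had 20438 and 17566 reads in the LC3B and IgG RIPs and 11616 and 12038 in the LC3B and IgG inputs. It was again above input in both RIPs, at 1.45 (1.42 to 1.48) with LC3B and 1.25 (1.22 to 1.28) with IgG, and LC3B over IgG was 1.10 (1.08 to 1.12). GAPDH (ENSG00000111640, chromosome 12, 6534512 to 6538374) lies near TPI1 on the same chromosome. It had 88958 reads in the LC3B RIP, 64774 in the IgG RIP, 68327 in the LC3B input and 72608 in that of IgG. With LC3B it was close to its input, 1.07 (1.06 to 1.08), and with IgG below, 0.763 (0.755 to 0.771), which put LC3B over IgG at 1.30 (1.29 to 1.31).

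PGK1 (ENSG00000102144, chromosome X, 77910739 to 78129295) and PGAM1 (ENSG00000171314, chromosome 10, 97426191 to 97433444) follow GAPDH, the kinase returning ATP and the mutase moving the phosphate. PGK1 had 7830 reads in the LC3B RIP, 4093 in the IgG RIP, 5009 in the LC3B input and 4731 in that of IgG. PGAM1 had 6393, 4083, 4716 and 4322 reads in the same libraries. Like GAPDH, both lay below input with IgG and above it with LC3B. PGK1 stood at 1.81 (1.74 to 1.88) for LC3B over IgG, 1.29 (1.24 to 1.33) for LC3B over input and 0.740 (0.710 to 0.772) for IgG over input. PGAM1 stood at 1.48 (1.43 to 1.54), 1.12 (1.07 to 1.16) and 0.808 (0.774 to 0.844) in these comparisons. With MT in the totals PGAM1 was at 1.03 (0.985 to 1.07) for IgG over input.

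ENO1 (ENSG00000074800, chromosome 1, 8861000 to 8879190), the main enolase outside muscle and nerve, had the largest fold of the members over the LC3B input. It had 35501 reads in the LC3B RIP, 25866 in the IgG RIP, 15333 in the LC3B input and 16190 in that of IgG, which made it the gene in place 9 of all genes outside MT by CPM in the LC3B RIP, against place 33 in its input. The folds over input were 1.91 (1.87 to 1.94) with LC3B and 1.37 (1.34 to 1.39) with IgG, and LC3B over IgG was 1.30 (1.28 to 1.32). PKM (ENSG00000067225, chromosome 15, 72199029 to 72231822), pyruvate kinase of muscle and tumour cells, behaved alike. It had 18965 and 15432 reads in the LC3B and IgG RIPs and 8759 and 8882 in the LC3B and IgG inputs. Its folds over input were 1.78 (1.74 to 1.83) with LC3B and 1.49 (1.45 to 1.53) with IgG, and LC3B over IgG was 1.16 (1.14 to 1.19).

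LDHA (ENSG00000134333, chromosome 11, 18394560 to 18408425), the lactate dehydrogenase subunit that predominates in tumours, was the only member below input in both RIPs on totals outside MT, and stood at 1.01 (0.985 to 1.03) over the LC3B input with MT in the totals. It had 14867 reads in the LC3B RIP, 13104 in the IgG RIP, 15212 in the LC3B input and 16227 in that of IgG. The folds over input were 0.805 (0.787 to 0.823) with LC3B and 0.691 (0.675 to 0.707) with IgG. The RIPs themselves lay close together, LC3B over IgG being 1.07 (1.05 to 1.10).

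**Figure D2:**
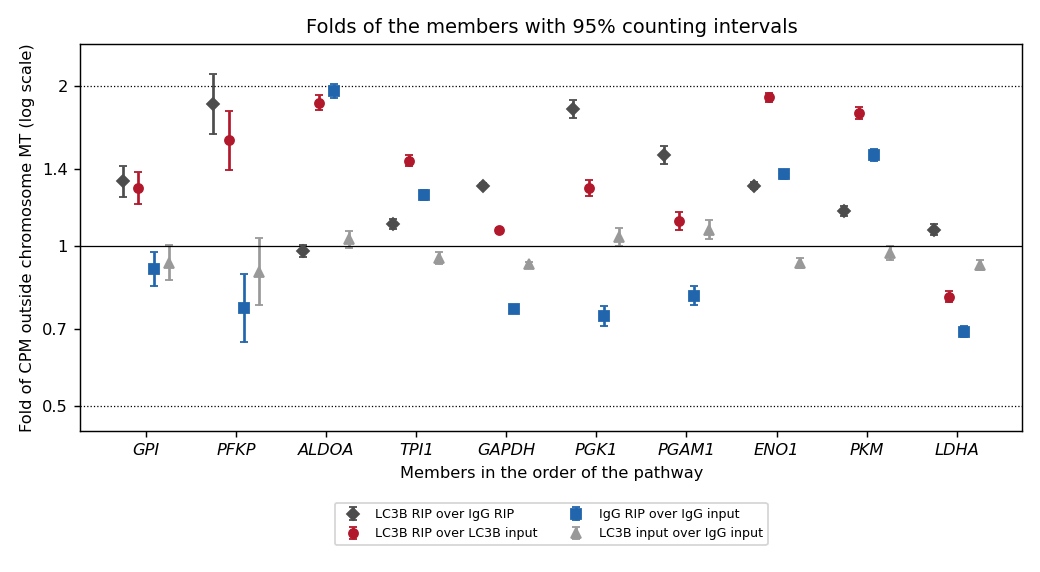
Fold of CPM outside MT (log scale) for each member in 4 comparisons, with 95% counting intervals, a solid line at 1 and dotted lines at 2 and 0.5. ALDOA, TPI1, ENO1 and PKM lie above 1 over input in both RIPs, LDHA lies below 1 in both, and the other 5 members lie above 1 with LC3B and below 1 with IgG, though with MT in the totals GPI and PGAM1 lie above 1 with IgG and LDHA at 1.01 with LC3B.

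No member passed the bounds of 2 and 0.5 in any comparison on totals outside MT. With MT in the totals ALDOA, ENO1 and PKM were called higher over the LC3B input, at 2.33, 2.39 and 2.23, and ALDOA over the IgG input, at 2.49. Between the RIPs 0 of 10 were called, beside 33.8% of 15431 tested genes higher and 9.45% lower with LC3B, and 8.27% and 7.15% of the 2224 abundant genes. Over the LC3B input 0 were called, beside 1.4% of tested genes higher and 4.48% lower, and 1.03% and 10.2% of abundant genes. Over the IgG input 0 were called, beside 9.69% of tested genes higher and 33.6% lower, and 3.64% and 12.1% of abundant genes. Between the inputs 0 members were called, beside 0.136% of tested genes higher and 0.156% lower, and 0% of abundant genes. With bounds of 1.5 and its inverse, PFKP and PGK1 were higher between the RIPs, beside 40.5% of tested and 17.8% of abundant genes. By the same bounds ENO1, ALDOA and PKM were higher over the LC3B input, beside 7.82% of tested and 8.72% of abundant genes. ALDOA alone was higher over the IgG input (16.5% of tested and 12.6% of abundant genes).

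Short of a call, the members lay on the upper side with LC3B. Over the LC3B input 9 of 10 were above 1, with a median log2 fold of 0.45, beside a median of 0.02 over all tested genes and -0.13 over abundant genes, of which 41.7% were above 1. ENO1 lay at percentile 97.2 of the abundant genes, ALDOA at 96.8 and PKM at 95.1, against 40.7 for LDHA. Between the RIPs 9 of 10 were above 1, with a median of 0.38, beside 0.43 over all tested genes (60.9% above 1) and -0.08 over abundant genes (46.2%). Over the IgG input 4 were above 1 and 6 below, with a median of -0.23, beside -0.45 over all tested genes (38.8% above 1) and -0.12 over abundant genes (43.8%). The LC3B input over the IgG input gave -0.09, beside 0.02 and -0.01. The comparison of both RIPs and that of LC3B with its input share the LC3B library, so their counts are not separate evidence.

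The input-corrected ratio divides the LC3B fold over its input by the IgG fold over its input. It was 2.06 (log-normal counting interval 1.71 to 2.50) for PFKP and 1.74 (1.65 to 1.84) for PGK1. GPI, GAPDH, ENO1 and PGAM1 lay between 1.38 and 1.42, PKM, LDHA and TPI1 between 1.16 and 1.20, and ALDOA at 0.951 (0.909 to 0.994). No member was called, beside 29.1% of tested genes higher and 7.58% lower, and 7.42% and 5.98% of abundant genes. With bounds of 1.5, PFKP and PGK1 were higher, beside 36.1% of tested and 16.7% of abundant genes. The median log2 ratio was 0.47, beside 0.41 over all tested and -0.07 over abundant genes.

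Folds over input followed a like order in both RIPs, which share no library. Across the 10 members Pearson's r between the log2 folds was 0.797 and Spearman's rho 0.794, as a description. Across the 2224 abundant genes r was 0.440 and rho 0.455. LDHA was the lowest member in both, and ENO1, ALDOA, PKM and TPI1 were among the highest 5 in both.

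**Figure D3:**
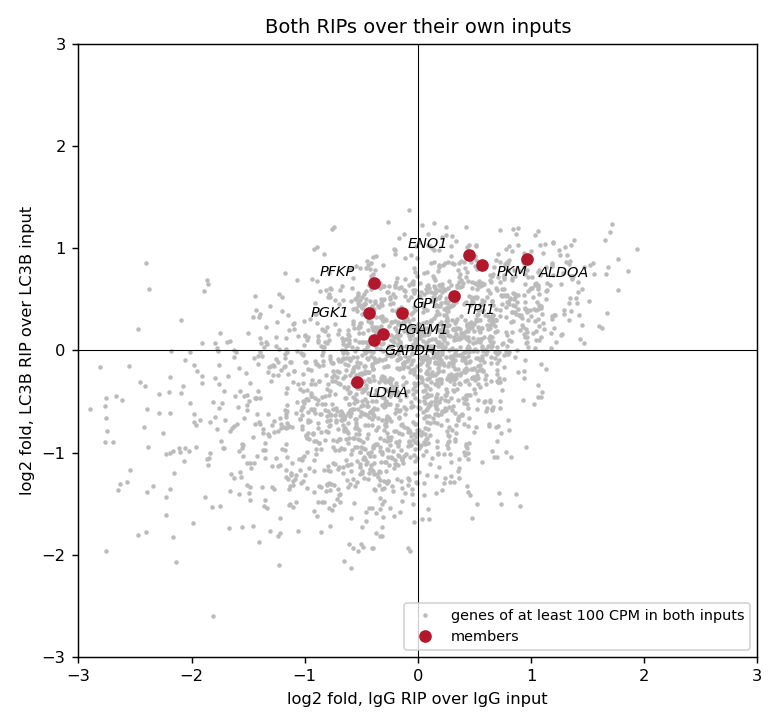
Log2 fold of the LC3B RIP over its input (vertical) against that of the IgG RIP over its input (horizontal), for 2224 genes of at least 100 CPM in both inputs (grey, 14 outside the axes) and the 10 members (red). ENO1, ALDOA, PKM and TPI1 lie in the upper right, PFKP, PGK1, GPI, GAPDH and PGAM1 in the upper left, and LDHA in the lower left, where totals with MT put GPI and PGAM1 right of 0 and LDHA just above it.

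Ratios of reads within a library do not depend on any total, and they showed the same regrouping. ENO1 had 2.39 reads per LDHA read in the LC3B RIP (2.34 to 2.43) and 1.97 in the IgG RIP (1.93 to 2.02), against 1.01 in the LC3B input (0.986 to 1.03) and 0.998 in the IgG input (0.976 to 1.02). ENO1 had 0.399 reads per GAPDH read in each RIP, against 0.224 in the LC3B input and 0.223 in that of IgG. The ENO1 to GAPDH ratio was thus alike in both RIPs, whereas that of ENO1 to LDHA was higher with LC3B than with IgG. ALDOA reads per GAPDH read were 0.144 in the LC3B RIP and 0.191 in the IgG RIP, against 0.0828 and 0.0744 in the LC3B and IgG inputs. PGK1 reads per PGAM1 read were 1.22 (1.18 to 1.27) with LC3B, 1.002 (0.960 to 1.05) with IgG, 1.06 (1.02 to 1.11) in the LC3B input and 1.09 (1.05 to 1.14) in the IgG input.

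As shares of the reads of the 10 members, GAPDH took 42.7% of the LC3B RIP and 40.7% of the IgG RIP, against 50.1% of the LC3B input and 51.1% of the IgG input. ENO1 took 17.02% and 16.3% with LC3B and IgG, against 11.2% and 11.4% in their inputs. LDHA took 7.13% and 8.23%, against 11.2% and 11.4%. Both RIPs thus held relatively more ENO1, ALDOA, PKM and TPI1 and relatively less GAPDH and LDHA than both inputs.

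**Figure D4:**
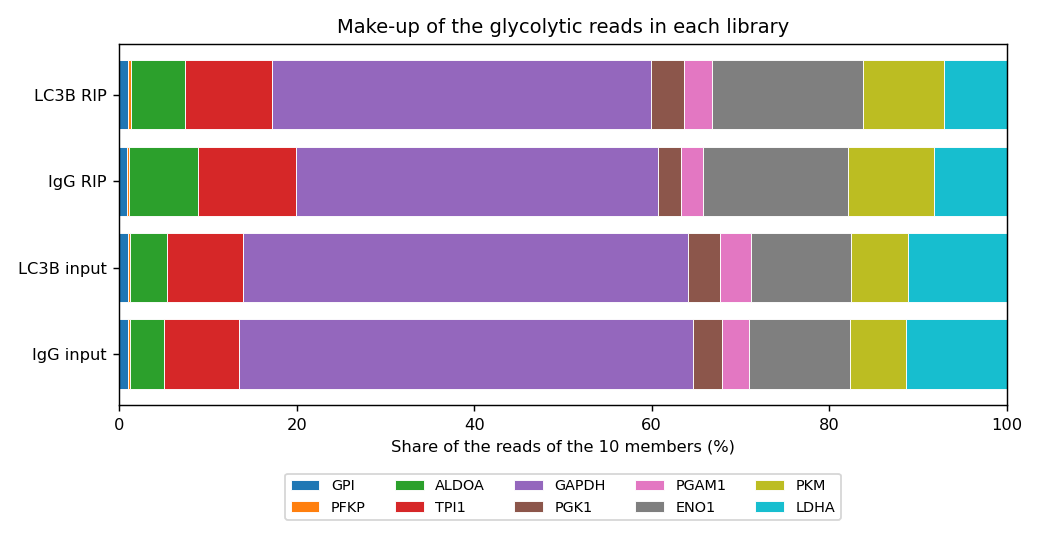
Share of the reads of the 10 members (%) taken by each member, 1 bar per library. The ENO1 segment covers 17.02% and 16.3% of the LC3B and IgG RIPs and 11.2% and 11.4% of the LC3B and IgG inputs, and the LDHA segment narrows to 7.13% and 8.23% in the RIPs.

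Several steps have alternative isoenzymes, and the members were the main form at most of them. Of the TPM at their step, ALDOA held between 99.1% and 99.3%, PGAM1 between 99.87% and 99.97%, and ENO1 between 94.3% and 96.6%, and PKM held at least 99.95%. Lactate dehydrogenase was mixed. LDHB, the heart-type subunit, had 8189 reads in the LC3B RIP, 8402 in the IgG RIP, 7242 in the LC3B input and 6764 in that of IgG, with folds over input of 0.931 (0.902 to 0.961) and 1.06 (1.03 to 1.10). LDHA reads per LDHB read were 1.82 (1.77 to 1.87) with LC3B and 1.56 (1.52 to 1.60) with IgG. Their inputs had 2.10 (2.04 to 2.16) and 2.399 (2.33 to 2.47). Of the step's TPM, LDHA held 51.3% with LC3B and 47.2% with IgG, against 55.4% and 58.6% for their inputs. By TPM LDHB thus exceeded LDHA in the IgG RIP alone, at 864 against 773. Phosphofructokinase was divided over PFKP, PFKL and PFKM, with PFKP at 42.5% of the step's TPM in the LC3B RIP, 25.3% in the IgG RIP, 40.4% in the LC3B input and 42.6% in that of IgG.

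Of the 20 other glycolytic isoenzymes and hexokinases listed, 12 reached a mean of 1 CPM, and between the RIPs 4 were higher with LC3B and 0 lower. Those 4 were lower with IgG than in its input, and 0 of the list were called over the LC3B input. ENO2, the neuronal enolase, had 413 reads in the LC3B RIP and 12 in the IgG RIP, against 304 and 276 in their inputs, a fold between the RIPs of 32.6 (18.5 to 63.6). HK1, the main hexokinase, which starts the pathway, had 1019 and 252 reads, against 624 and 577 (3.83, 3.33 to 4.41), or 28.6 TPM with LC3B and 12.0 with IgG. LDHC, the testis-type subunit, had 121 reads with LC3B and 0 with IgG, at least 38.2-fold, and HK2 17 and 0, at least 5.37-fold, both with 3 reads per library taken as the floor. The reads of these 4 genes were thus scarce in the IgG RIP, and with LC3B lay between 0.823 and 1.47 of input. The IgG RIP lacked many genes, so these calls stand beside the 33.8% of tested genes called likewise.

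**Figure D5:**
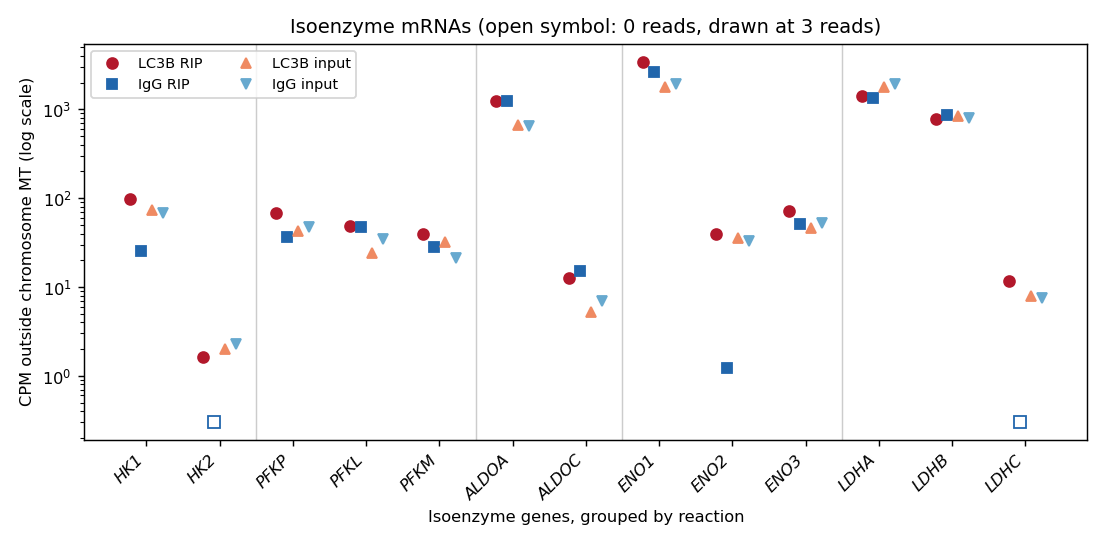
CPM outside MT (log scale) of isoenzyme genes grouped by reaction, 1 point per library, with open symbols for 0 reads drawn at 3 reads. HK1, HK2, PFKP, ENO2, LDHA and LDHC lie lowest in the IgG RIP, whereas PFKL, ALDOA, ALDOC and ENO1 lie above both inputs in both RIPs.

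Processed pseudogenes, reverse-transcribed copies of an mRNA, are frequent for these genes. The table held 97 features named as such copies of 8 members, 62 of them of GAPDH, and 33 had a read. They took at most 0.589% of the joint reads of parent and copies in any library (TPI1 in the IgG RIP) and 543 reads in all. The most read were TPI1P2 and GAPDHP1. How reads matching both a parent and its copies were counted is not given in the sources used here.

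The genes around the pathway were described from 8 lists. Of 10 tested genes of glucose and lactate transport, 4 were higher and 0 lower between the RIPs, near the 33.8% and below the 9.45% of all tested genes, with a median log2 fold of 0.08. SLC16A1, the lactate transporter MCT1, had 1560 reads with LC3B and 8 with IgG, against 1190 and 1000 in their inputs, a fold of 185 (93.5 to 428). SLC2A12, a glucose transporter, had 209 and 2, against 202 and 210 (98.9, 27.1 to 822). BSG, basigin, the chaperone of SLC16A1 at the membrane, was the most abundant of the list and did not follow it, with 10380 and 13004 reads against 5610 and 5528. SLC2A4 and SLC16A7 were called too, but SLC16A7 had 4.24 TPM with LC3B and 5.22 with IgG, the opposite direction, and SLC2A8 was higher in the IgG RIP than in its input, at 3.46 (2.82 to 4.26). No gene of this list was called over the LC3B input.

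Of 13 tested genes for pyruvate entry to mitochondria, 1 was higher and 3 lower between the RIPs, beside 33.8% and 9.45% of all tested genes, with a median of -0.83. Pyruvate carboxylase, PC, was higher at 21.5 (9.61 to 59.5), with 7.41 TPM with LC3B against 0.978 with IgG. The pyruvate dehydrogenase kinases PDK3 at 0.2499 (0.199 to 0.311) and PDK2 at 0.417 (0.371 to 0.467) and the complex component PDHX at 0.370 (0.331 to 0.413) were lower. PDHX was also lower than in the LC3B input, at 0.376 (0.336 to 0.420). PDP1, a phosphatase of the complex, was lower in the IgG RIP than in its input, at 0.403 (0.339 to 0.479), and PDHB, the most abundant of the list, was not called. The list's median lay below 0 and that of the glycolytic members above it, and the difference between the lists was not tested.

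In the pentose phosphate pathway, which branches off after hexokinase, PGD, which makes NADPH, was higher between the RIPs at 3.35 (3.07 to 3.67). H6PD, an enzyme of the endoplasmic reticulum, was lower at 0.210 (0.155 to 0.281). TALDO1, the most abundant, was uncalled at 0.816 (0.765 to 0.870). Of 4 tested regulators of phosphofructokinase, 1 was higher and 0 lower between the RIPs, beside 33.8% and 9.45% of all tested genes. PFKFB3 was higher, with 80 reads against 0 and a lower bound of 20.1 for the fold. Over the LC3B input PFKFB3 was uncalled at 1.29 (0.898 to 1.87). PFKFB4, the most abundant, was uncalled between the RIPs at 1.65 (1.20 to 2.29) in counts. In TPM it went in the opposite direction, with 3.76 with LC3B against 9.75 with IgG. Of the 6 gluconeogenic genes 2 were tested, of which 1 was higher and 0 lower between the RIPs, beside the same shares of all tested genes. PCK2 was higher at 3.59 (3.03 to 4.28) and G6PC3 uncalled at 1.14 (1.05 to 1.24).

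In the citric acid cycle 2 of 20 genes were higher and 1 lower between the RIPs, beside 33.8% and 9.45% of all tested genes, with a median of -0.10. OGDH stood at 11.7 (6.62 to 22.4), with 5.79 TPM with LC3B against 2.03 with IgG. DLST, with 73 reads against 0, was higher with a lower bound of 18.3, and SDHD, the most abundant, stood at 0.341 (0.327 to 0.357). SUCLG2 was lower and IDH2 higher in the IgG RIP than in its input, at 0.191 (0.161 to 0.225) and 2.83 (2.51 to 3.19). Of 16 tested genes of the HIF list, which holds no glycolytic enzyme, 4 were higher and 0 lower between the RIPs, beside 33.8% and 9.45% of all tested genes, with a median of 0.12. HIF1A, the regulated HIF subunit, had 1986 reads with LC3B and 416 with IgG, against 2021 and 1951 in their inputs (4.52, 4.06 to 5.04). ANKRD37 had 113 and 12 (8.92, 4.91 to 17.8), or 18.5 and 0.947 TPM, and NDRG1 187 and 1 (177, 31.4 to 7030.5). ADM, with 51 and 0, was higher with a lower bound of 12.6. VHL, which marks HIF for degradation, was lower in the IgG RIP than in its input, at 0.325 (0.264 to 0.399), and BNIP3L, a mitophagy receptor and the most abundant of the list, was uncalled at 0.493 (0.462 to 0.525). Over the LC3B input PDHX was the only gene called in the 8 lists on totals outside MT, and with MT in the totals the pyruvate list had 0 lower and the isoenzyme list 2 higher.

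The genes whose pattern over the 4 libraries was nearest to that of the median member were sought among 2212 other genes of at least 100 CPM in both inputs. They were RPS20, a ribosomal protein, at a root mean square difference of 0.034 in centred log2 CPM, EIF3G, a translation initiation factor, at 0.041, PKIB, a protein kinase inhibitor, at 0.044, ATP5F1E, an ATP synthase subunit, at 0.047, and GABARAPL2, a relative of LC3B, at 0.049. RPS20 had 3812 reads in the LC3B RIP, 2449 in the IgG RIP, 2366 in the LC3B input and 2372 in that of IgG. Of the members, GPI lay at 0.055 from the median and ALDOA farthest, at 0.449, so the median pattern describes some members better than others.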

How the data were processed

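The authors deposited raw read counts and TPM per Ensembl gene for 4 libraries, per the file headers. cutadapt 2.8, STAR 2.7.1a and build hg38 are named in the submitters' processing notes. Counting tool, annotation, strand and the treatment of duplicates or multiple mapping: not given in the sources used here. Libraries were made with the SMART-Seq v4 kit, per the labels' protocols. Commas grouping digits were removed, after which each count was whole. Deposited TPM was rescaled to the same sum outside chromosome MT in each library.

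Members and lists were chosen with earlier results of these data known. The counts and median of the pentose phosphate list are not reported here. Counts were divided by totals outside chromosome MT. The test set was every gene outside MT whose mean reached 1 CPM. Folds have exact conditional binomial 95% intervals (scipy 1.17.1), and a library with 0 reads was given 3. The input-corrected ratio adds 0.5 to each count. Coordinates are those of the deposited tables. Interval calls were tested on simulated data. Named genes were all members, per list up to 5 called genes and the most abundant, the 5 nearest patterns and the 2 most read pseudogenes. TMM and median-of-ratios factors came from purpose-written code. Alternatives were other totals, TPM, pseudogene reads added, summed inputs, other bounds, point folds and other filters.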

Additional observations from a re-analysis of the deposited data

Results flagged for a closer look

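Over their own inputs, 5 of the 10 members lay above 1 in the LC3B RIP and below 1 in the IgG RIP, with counting intervals clear of 1 on both sides, as did 12.3% of tested and 11.2% of abundant genes. With 1 library per group this difference was not tested across samples. The input-corrected ratio was 1.42 for GPI, 2.06 for PFKP, 1.4 for GAPDH, 1.74 for PGK1 and 1.38 for PGAM1. With totals that include chromosome MT, GPI (1.15) and PGAM1 (1.03, interval 0.985 to 1.07) lay above 1 in the IgG RIP over its input, whereas GAPDH (0.971) and PGK1 (0.942) stayed below 1 with their intervals. PFKP stood at 0.975 there, with an interval of 0.843 to 1.13. The IgG RIP had reads on fewer genes than the other libraries, and the part of this in the ratios was not tested.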

How the results depend on the processing

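No paired analysis was possible because each group holds 1 library, and none could be left out. With totals that include chromosome MT, the number of members called higher over the LC3B input was 3 (ALDOA, ENO1 and PKM) and over the IgG input 1 (ALDOA), and the median log2 folds were 0.77 and 0.12, so the IgG median turned positive. That total moves because the inputs hold more mitochondrial RNA. TMM scaling gave -0.15 between the inputs, and median-of-ratios scaling 0.26 for LC3B over IgG. In deposited TPM, without intervals, 1 member (PFKP) was higher between the RIPs and 1 by the input-corrected ratio, with medians of 0.41 between the RIPs, 0.32 over the LC3B input and -0.41 over the IgG input. The cause of these shifts was not tested. Bounds of 1.5 called 3 members higher over the LC3B input, 2 between the RIPs, 1 for IgG over its input and 2 by the input-corrected ratio, and point folds called 1 by that ratio. Bounds of 4, summed inputs, totals without the members and added pseudogene reads called 0 members, as before.

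The members' share in the LC3B RIP, the IgG RIP, the LC3B input and the IgG input was 1.99%, 1.59%, 1.26% and 1.31% with MT in the total, 1.60%, 1.26%, 1.38% and 1.46% in TPM, and 1.962%, 1.63%, 1.58% and 1.74% with TMM. Median-of-ratios scaling gave 1.95%, 1.70% and 1.57% for the LC3B RIP, the IgG RIP and the LC3B input, and left the share of the IgG input within its interval. The share was highest in the LC3B RIP in each.

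Among single members, 1 of 50 log2 folds changed sign with TMM (ALDOA between the inputs), 1 with median-of-ratios scaling (LDHA between the RIPs), 5 in TPM and 3 with MT in the total, among them LDHA over the LC3B input at 0.01. With MT in the total, 886 rather than 216 genes were higher and 261 rather than 691 lower over the LC3B input, and 2364 rather than 1495 were higher and 4582 rather than 5185 lower over the IgG input. A filter of 5 CPM left 2923 rather than 5219 genes higher between the RIPs and 2974 rather than 5185 lower over the IgG input. Among the 2224 abundant genes 184 were higher and 159 (rather than 1459) lower between the RIPs, 23 and 227 over the LC3B input, and 81 and 270 over the IgG input. Between the inputs 21 genes were higher and 24 lower, against 61 and 53 without a filter, 1 and 6 at 5 CPM and 0 among abundant genes. For the neighbouring lists over the LC3B input, MT in the total gave 2 isoenzymes and 1 gluconeogenic gene higher and 0 pyruvate genes lower, and TMM gave 1 HIF gene lower there and 1 between the RIPs. Over the IgG input, MT in the total gave 4 transport, 3 citric acid cycle, 2 pyruvate, 2 HIF and 1 isoenzyme gene higher, and 1 pyruvate and 0 gluconeogenic genes lower. Depth limits the low genes, such as HK2.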
